A study of Homo sapiens with 15 samples.

Results

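The 51 genes described here encode the DNA replication machinery, and were chosen by their known function, from a list of gene symbols. That list was drawn up with earlier results of these data known, so the counts below are not those of a blind choice. All 51 were present in both normalized expression tables of the series, which hold 17769 and 60510 genes with an identifier, and all 51 were among the 17039 and 16503 genes tested. The samples were 15 mRNA-seq libraries of K562, an established human chronic myeloid leukemia cell line that carries BCR-ABL1. One table held 3 libraries each of HSP90α-KO cells, HSP90β-KO cells and their control, cells with an empty vector (EV). The labels describe lentiviral delivery of Cas9 with a guide RNA, sorting on a fluorescent marker and growth from single cells, with treatment given as none. EV cells are labelled WT (wild type). The other table held 3 libraries of parental cells kept long term in DMSO, the solvent, and 3 of cells kept long term in rising amounts of PU-H71 (labelled PUH71, here PUHr), an HSP90 inhibitor, from which resistant clones were selected. Both groups are labelled WT. The study reported that PUHr cells had gained copies of HSP90AA1, the gene of HSP90α, and carried a missense variant in it. It also reported more HSP90α protein in PUHr than in parental cells. The cells compared derive from single cells, so a property of the clone and an effect of the genotype or of the resistance cannot be told apart. The labels number the replicates 1 to 3 and do not say whether they came from separate cultures, so p-values measure the spread between these libraries.

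DNA replication starts where the origin recognition complex (ORC) marks DNA. CDC6 and CDT1 then load the ring-shaped MCM2-7 helicase, geminin (GMNN) blocks a repeat of that loading, and CDC45 and the GINS complex turn the ring into an active helicase. Polymerase α-primase lays primers, polymerases δ and ε extend them with the sliding clamp PCNA and its loader RFC, RPA coats single-stranded DNA, FEN1 and LIG1 join Okazaki fragments, ribonucleotide reductase (RRM1 and RRM2), TYMS and TK1 supply deoxynucleotides, and CHAF1A and CHAF1B place histones behind the fork. Many of these genes are transcribed before and during S phase under the control of E2F factors, and HSP90 is a chaperone whose cytosolic forms α and β are encoded by HSP90AA1 and HSP90AB1. In bulk RNA, a change in the share of cells in S phase and a change in RNA per cell cannot be told apart. By flow cytometry, the study reported no significant change in the cell cycle phases of HSP90α-KO or HSP90β-KO cells. Whether this held for the cells of these libraries was not tested.

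Promoter sequences show what these genes share beside their function. RefSeq promoters on GRCh38.p14, from 250 bases before to 50 bases after the start site, were matched for 45 of the 51 members. The letters TTTCCCGC, TTTGGCGC, TTTGGCGG, TTTCGCGC and TTTCCCGG, as forms of the E2F motif, were searched on both strands, as was CCAAT, the motif known for NF-Y. At least 1 E2F match stood in 24 of the 45 member promoters (53.3%) in 863 of the 10918 promoters of genes tested in the knockout table (7.9%) and in 1317 of all 27305 promoters (4.82%). CCAAT stood in 26 of 45 (57.8%), in 36.8% of those of tested genes and in 35.7% of all. The letters TTTGAA and TTCGAA of the CHR motif, known from genes of G2 and M phase, stood in 2 of 45 member promoters (4.44%), in 11.5% of those of tested genes and in 16.6% of all. A match is a description of letters and not a measured binding site. Among the 24 members with an E2F match, 13 were called higher and 3 lower in HSP90α-KO cells, with a median log2 fold change of 0.10, and among the 21 without a match, 11 were higher and 1 lower, with a median of 0.11. Of all genes tested 27.5% were called higher and 26.6% lower in that comparison.

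The promoters of 6 members on which the results below turn are printed 5′ to 3′, with E2F and CCAAT matches of either strand in capitals (a CCAAT on the opposite strand reads ATTGG). MCM3 lies at chr6:52284693-52284992 (minus strand) and holds 2 E2F matches. MCM6 lies at chr2:135876394-135876693 (minus strand) and holds 4 matches, in 2 overlapping pairs. CDC6 lies at chr17:40287629-40287928 (plus strand), GINS3 at chr16:58392221-58392520 (plus strand), RRM2 at chr2:10122489-10122788 (plus strand) and ORC2 at chr2:200963611-200963910 (minus strand). CDC6 holds 2 E2F matches and GINS3 holds 1, while these letters are not in the windows of RRM2 and ORC2.
MCM3: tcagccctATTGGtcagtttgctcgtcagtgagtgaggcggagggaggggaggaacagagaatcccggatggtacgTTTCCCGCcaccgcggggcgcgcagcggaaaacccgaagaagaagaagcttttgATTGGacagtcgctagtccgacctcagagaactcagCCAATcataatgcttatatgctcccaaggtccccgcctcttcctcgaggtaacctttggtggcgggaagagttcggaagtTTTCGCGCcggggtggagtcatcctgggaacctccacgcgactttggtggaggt
MCM6: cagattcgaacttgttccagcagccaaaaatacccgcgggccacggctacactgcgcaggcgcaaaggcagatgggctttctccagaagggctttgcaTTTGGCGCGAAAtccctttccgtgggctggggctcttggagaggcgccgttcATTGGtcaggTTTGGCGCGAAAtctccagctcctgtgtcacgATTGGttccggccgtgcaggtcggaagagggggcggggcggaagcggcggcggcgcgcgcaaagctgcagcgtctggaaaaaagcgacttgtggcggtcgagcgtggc
CDC6: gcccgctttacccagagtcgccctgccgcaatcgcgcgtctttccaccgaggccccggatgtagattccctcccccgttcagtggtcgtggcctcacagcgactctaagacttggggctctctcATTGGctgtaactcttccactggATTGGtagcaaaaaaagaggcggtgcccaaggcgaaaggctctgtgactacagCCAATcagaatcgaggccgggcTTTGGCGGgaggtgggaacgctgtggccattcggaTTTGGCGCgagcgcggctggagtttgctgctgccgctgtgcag
GINS3: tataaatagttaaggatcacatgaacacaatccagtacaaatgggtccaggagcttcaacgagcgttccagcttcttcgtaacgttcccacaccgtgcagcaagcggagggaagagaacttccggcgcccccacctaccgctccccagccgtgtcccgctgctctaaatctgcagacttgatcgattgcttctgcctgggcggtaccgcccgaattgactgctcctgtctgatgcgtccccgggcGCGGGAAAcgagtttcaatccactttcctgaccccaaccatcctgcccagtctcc
RRM2: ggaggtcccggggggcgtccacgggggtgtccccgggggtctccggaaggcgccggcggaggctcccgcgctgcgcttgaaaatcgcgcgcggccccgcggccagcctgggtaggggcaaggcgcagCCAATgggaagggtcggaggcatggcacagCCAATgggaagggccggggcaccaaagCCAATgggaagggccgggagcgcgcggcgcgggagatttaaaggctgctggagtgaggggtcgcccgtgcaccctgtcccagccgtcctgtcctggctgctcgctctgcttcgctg
ORC2: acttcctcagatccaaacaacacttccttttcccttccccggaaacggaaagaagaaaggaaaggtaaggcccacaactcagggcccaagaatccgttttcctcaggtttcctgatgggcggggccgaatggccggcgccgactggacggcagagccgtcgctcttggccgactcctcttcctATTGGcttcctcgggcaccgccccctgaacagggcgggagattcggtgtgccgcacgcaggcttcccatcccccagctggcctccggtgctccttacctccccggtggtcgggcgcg

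Each library had between 19594381 and 26216730 reads on genes. Members had between 291 and 18476 reads in each knockout table library and between 417 and 19803 in the other, so none was near the detection limit. HSP90AA1 was 704 ± 18.7 CPM in EV and 90.5 ± 2.34 CPM in HSP90α-KO cells (SD, n = 3), HSP90AB1 was 2806 ± 21.1 CPM in EV and 1913 ± 25.1 CPM in HSP90β-KO cells, and in PUHr cells they were 1568 ± 21.0 and 3847 ± 98.1 CPM against 1712 ± 14.1 and 4531 ± 42.0 CPM in parental cells. All 11 markers fixed for K562 cells had over 100 reads in every library. Of the 10 markers of other cell types, EPCAM (572 to 1861 reads a library) and LYZ (554 to 1231) were the highest, CD79A and PECAM1 had at most 24 reads in any library, and MS4A1 had 0 in the table that lists it. CD3E was at 66 to 88 reads in EV, 3 to 12 in HSP90α-KO and 102 to 124 in HSP90β-KO libraries, and COL1A2 at 116 to 137 reads in parental and 1 to 5 in PUHr libraries. EPCAM was at 1631 to 1861 reads in parental and 572 to 684 in PUHr libraries. LYZ was at 829 to 1028 reads in EV, 1179 to 1231 in HSP90α-KO and 642 to 753 in HSP90β-KO libraries. PECAM1 was at 2 to 4 reads in EV and 17 to 24 in HSP90α-KO libraries. Their part in the results was not tested.

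In the knockout table the member genes took 0.63% to 0.639% of the reads of EV libraries, 0.646% to 0.665% in HSP90α-KO and 0.687% to 0.689% in HSP90β-KO libraries, and the 3 ranges did not overlap. In the other table the range was 0.714% to 0.719% in parental and 0.738% to 0.755% in PUHr libraries. These shares are weighted to the most abundant members and do not use the normalization factors of the tables. Levels below are CPM (read counts scaled to the size of the library), with fold changes as log2 differences of the deposited log2 CPM. Per kilobase of annotated exons (GENCODE v44, all isoforms joined), the highest members in EV cells were MCM3 (136 CPM per kb), MCM7 (135), CDC45 (126), PCNA (117) and CDT1 (101). The lowest was POLA2 (1.49), followed by POLA1 (3.35), MCM8 (3.70), GINS3 (3.73) and GINS1 (4.09). In parental cells MCM3 (168) was also the highest and POLA2 (1.71) the lowest, whereas CDT1 was at 38.0 CPM per kb. The tables were normalized separately, and this last difference was not tested.

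The first question was whether loss of HSP90α changed the replication genes. In HSP90α-KO cells more members were higher than lower. Of the 51 members, 27 (52.9%) rose and 5 (9.8%) fell at an adjusted p under 0.05 (limma, Benjamini-Hochberg over all genes tested), where 27.5% of all 17039 genes tested were called higher and 26.6% lower. Among the 8161 genes whose mean log2 CPM reached 4, the range of the members, 35.6% were higher and 29% lower. The changes were small. The median log2 fold change was 0.10 (all genes -0.01), with a range from -0.30 to 0.51, and no member passed the study's fold threshold of 1 on the log2 scale, which 10.3% of all genes passed. With quantile normalization the counts were 19 higher and 9 lower and the median was 0.05, where 4297 of all genes were higher and 4720 lower (4692 and 4538 as deposited).

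The rise was most marked in GINS3, a subunit of the GINS complex, and in both subunits of ribonucleotide reductase, the enzyme that makes deoxynucleotides. GINS3 (chr16:58295080-58406147) measured 19.8, 18.5 and 18.8 CPM in EV and 27.6, 26.5 and 27.5 CPM in HSP90α-KO libraries, so the groups did not overlap (log2 fold change 0.51 ± 0.057, adjusted p = 1.9e-08, ± SE throughout). RRM2, the regulatory subunit of ribonucleotide reductase (chr2:10120698-10211725), measured 159.9, 157 and 159 CPM in EV and 211, 214 and 219 CPM in HSP90α-KO libraries (0.44 ± 0.030, adjusted p = 1.7e-12). RRM1, the catalytic subunit (chr11:4094707-4138932), measured 173, 161 and 165 CPM in EV and 204, 204 and 217 CPM in HSP90α-KO libraries (0.33 ± 0.034, adjusted p = 8.2e-09). All HSP90α-KO libraries stood above all EV libraries for these 3 genes. The largest fall was that of MCM8, an MCM relative that works in homologous recombination (chr20:5950652-5998977). It measured 28.1, 28.3 and 28.8 CPM in EV and 22.3, 22.5 and 24.7 CPM in HSP90α-KO libraries (-0.30 ± 0.055, adjusted p = 5.1e-05), again without overlap.

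By role, 4 of 6 ORC subunits rose and none fell, led by ORC1, an ATP-binding subunit (0.22 ± 0.035, adjusted p = 9.1e-06). Of the licensing factors CDT1 (0.25 ± 0.043, adjusted p = 1.7e-05) and GMNN rose, and CDC6 was at -0.015 ± 0.037, adjusted p = 0.76. The MCM2-7 helicase subunits did not move together. MCM3 (0.17 ± 0.026, adjusted p = 3.5e-06), MCM4 (0.13 ± 0.027, adjusted p = 0.0002) and MCM2 (0.11 ± 0.036, adjusted p = 0.013) rose, MCM5 fell (-0.13 ± 0.037, adjusted p = 0.0039), and MCM6 (-0.024 ± 0.030, adjusted p = 0.53) and MCM7 (-0.044 ± 0.028, adjusted p = 0.2) did not pass the test. MCM10, which links the helicase to polymerase α, rose by 0.20. Within polymerase α-primase, the catalytic subunit POLA1 rose by 0.14, while POLA2, its regulatory subunit (-0.22 ± 0.062, adjusted p = 0.0047), and the primase PRIM1 fell. With quantile normalization MCM6 (-0.099, adjusted p = 0.0032) and MCM7 (-0.097, adjusted p = 0.0073) were called lower, MCM4 (0.047, adjusted p = 0.11) and MCM2 (0.053, adjusted p = 0.2) lost their calls, and so did CDC45 (0.021, adjusted p = 0.49) and GMNN (0.11, adjusted p = 0.057). MCM5, PRIM1, MCM2 and GMNN lost theirs without a variance trend (adjusted p from 0.062 to 0.085).

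None of the 5 subunits of polymerases δ and ε was called, with POLD2, the second subunit of polymerase δ, the farthest from 0 (-0.073 ± 0.035, adjusted p = 0.078). POLD2 was called lower with quantile normalization (-0.14, adjusted p = 0.0018) and without HSP90α-KO replicate 1 (-0.11, adjusted p = 0.0089), and POLE with quantile normalization (-0.10, adjusted p = 0.006). Of the 5 clamp loader subunits all but RFC5 rose, led by RFC1, the large subunit (0.25 ± 0.035, adjusted p = 1e-06), and the clamp PCNA was at 0.051 ± 0.032, adjusted p = 0.18. All 3 RPA subunits rose, with RPA1, the main DNA-binding subunit, at 0.17 ± 0.035, adjusted p = 0.0002. LIG1, the ligase of Okazaki fragments, fell (-0.14 ± 0.046, adjusted p = 0.015), and FEN1 was not called. In nucleotide supply TYMS, which makes thymidylate, was at 0.10 ± 0.040, adjusted p = 0.048, and TK1, the salvage kinase, at 0.043 ± 0.044, adjusted p = 0.42. CHAF1A and CHAF1B, of chromatin assembly factor 1, rose (CHAF1B 0.15 ± 0.045, adjusted p = 0.0061), as did the fork factors WDHD1 (0.26 ± 0.047, adjusted p = 3.9e-05) and CLSPN. Of these calls, 20 of 32 held under every alternative tried, among them those of GINS3, RRM1, RRM2, MCM8, ORC1, CDT1, MCM3, POLA2, RFC1, RPA1, CHAF1B and WDHD1. The call of MCM2 was lost without EV replicate 1 (0.075, adjusted p = 0.1) or without HSP90α-KO replicate 1 (0.088, adjusted p = 0.057), that of PRIM1 without HSP90α-KO replicate 1 (-0.090, adjusted p = 0.082), that of LIG1 without EV replicate 3 (-0.12, adjusted p = 0.074) or HSP90α-KO replicate 3 (-0.080, adjusted p = 0.12), and that of TYMS when any 1 of 8 libraries was left out (adjusted p from 0.06 to 0.18). The call of RFC4 was lost when any 1 of 7 libraries was left out (adjusted p from 0.051 to 0.22), so that 3 of the 5 clamp loader subunits remained. Those of GMNN (without EV replicate 2 or HSP90α-KO replicate 2, adjusted p = 0.059 and 0.12), RPA2 (without EV replicate 2 or HSP90α-KO replicate 3, adjusted p = 0.056 and 0.068) and RPA3 (without HSP90α-KO replicate 2, adjusted p = 0.06) were lost as well. With quantile normalization CHAF1A (0.079, adjusted p = 0.075), RPA2 (0.043, adjusted p = 0.32), RFC4 (0.089, adjusted p = 0.12) and TYMS (0.081, adjusted p = 0.095) were not called, and without a variance trend RPA2, RPA3, RFC4, TYMS and LIG1 were not (adjusted p from 0.053 to 0.15). RFC4 and TYMS also lost their calls with the replicate block (adjusted p = 0.053 and 0.065). The same held with only the 6 libraries compared (adjusted p = 0.067 and 0.08).

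**Figure D1:**
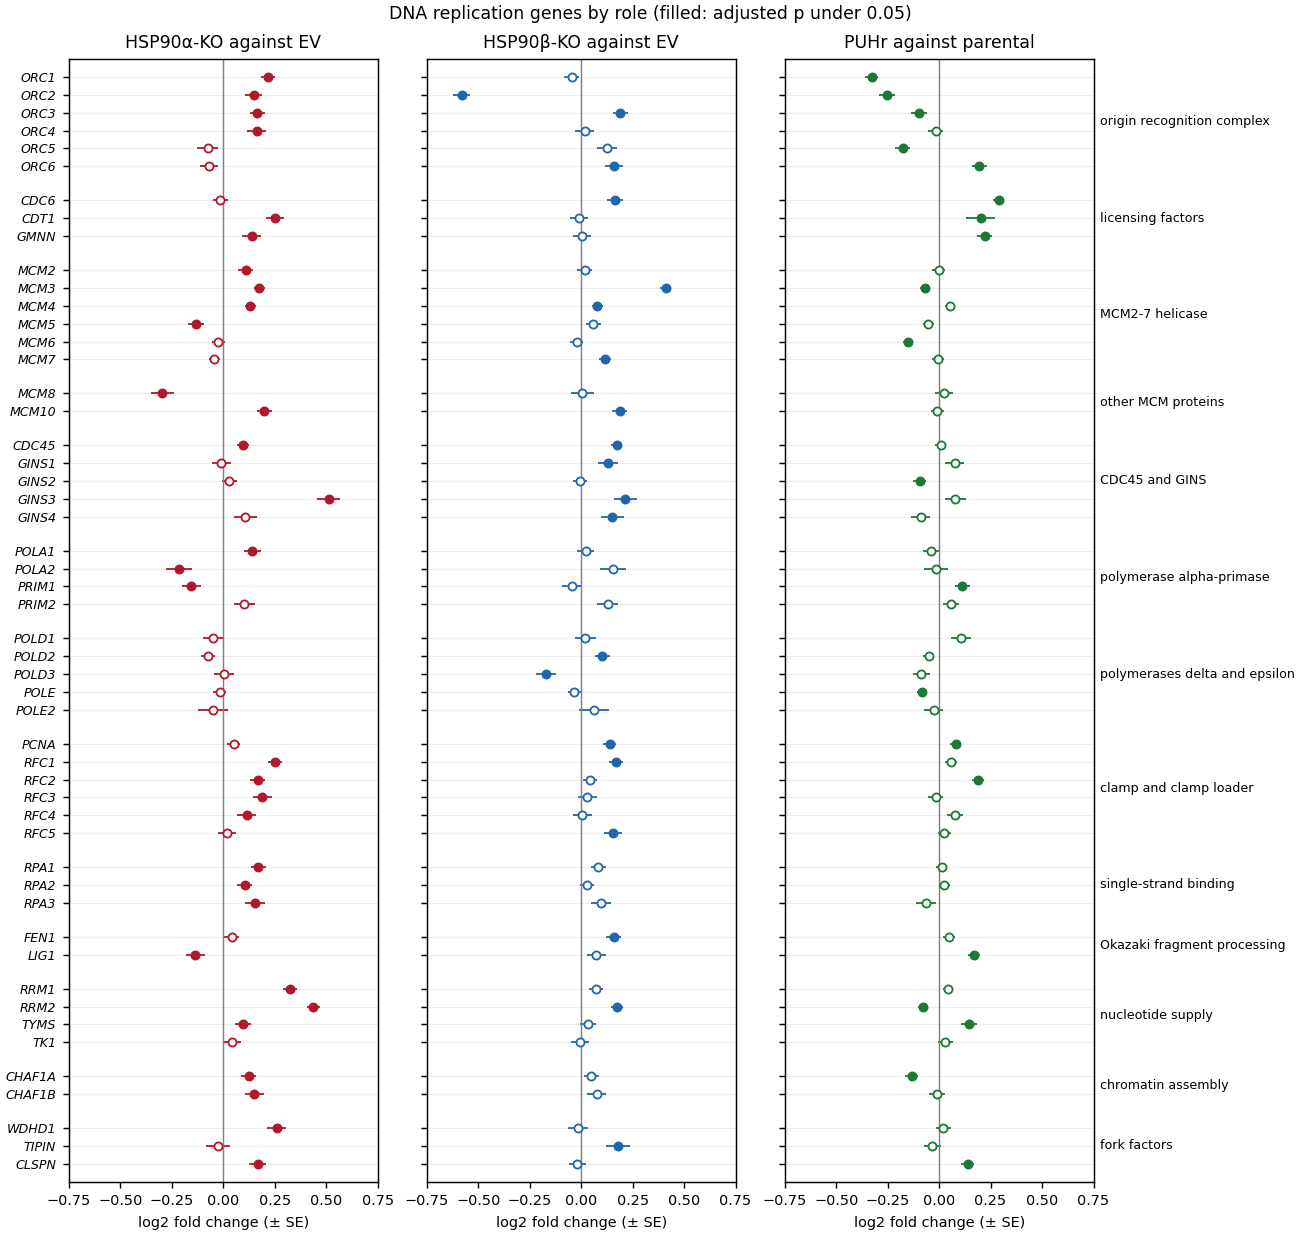
Log2 fold change (x axis, with standard error) of each of the 51 members (y axis, ordered by role) in HSP90α-KO and HSP90β-KO against EV and in PUHr against parental cells, 3 libraries a group. Filled points have an adjusted p under 0.05; 27 members are filled to the right of 0 in HSP90α-KO, 18 in HSP90β-KO and 10 in PUHr, and no point reaches 1 or -1.

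The same question for HSP90β gave fewer calls. In HSP90β-KO cells 18 members (35.3%) rose and 2 (3.92%) fell, where 17.2% of all genes tested were called higher and 17.2% lower, and 23.5% and 19.5% of the genes whose mean log2 CPM reached 4. The median was 0.07 (all genes 0.002), with a range from -0.58 to 0.41, and no member passed the fold threshold, which 4.48% of all genes passed. With median centring of the libraries, 10 members were higher and 2 lower, and the median was 0.03. All genes moved likewise, with 2134 higher and 3673 lower (2938 and 2926 as deposited) and a median of -0.04. The comparison shares its EV libraries with that of HSP90α-KO.

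The largest change was a fall of ORC2, a core subunit of the origin recognition complex (chr2:200908977-200963680). It measured 76.8, 70.9 and 79.2 CPM in EV and 50.6, 49.0 and 51.9 CPM in HSP90β-KO libraries (-0.58 ± 0.042, adjusted p = 1.6e-11), so all HSP90β-KO libraries stood well below EV. The 40 nearest tested genes around ORC2, over chr2:197500140-202303661, had a median of -0.56 in this comparison, and 30 of them were called lower and 1 higher. The value of ORC2 less that of its neighbours was -0.02. The part of the surrounding stretch in this value was not tested. The largest rise was that of MCM3, a helicase subunit (chr6:52264014-52284881), which measured 506, 491 and 489 CPM in EV and 661, 659.5 and 656 CPM in HSP90β-KO libraries (0.41 ± 0.026, adjusted p = 1.7e-12). GINS3 was also higher, at 22.9, 21.3 and 22.1 CPM in HSP90β-KO libraries against 18.5 to 19.8 CPM in EV (0.21 ± 0.057, adjusted p = 0.0042). ORC3, another core ORC subunit, measured 68.0, 67.8 and 65.9 CPM in EV and 77.0, 76.5 and 76.6 CPM in HSP90β-KO libraries (0.19 ± 0.037, adjusted p = 0.00018). Groups did not overlap for any of these 4 genes.

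By role, ORC3 and ORC6 rose and ORC2 fell. Of the licensing factors CDC6, the ATPase that recruits the helicase, rose (0.16 ± 0.037, adjusted p = 0.001) and CDT1 and GMNN did not pass the test. MCM3, MCM7 (0.11 ± 0.028, adjusted p = 0.0022) and MCM4 (0.078 ± 0.027, adjusted p = 0.028) rose, while MCM2 (0.016 ± 0.036, adjusted p = 0.77), MCM5 (0.059 ± 0.037, adjusted p = 0.24) and MCM6 (-0.022 ± 0.030, adjusted p = 0.61) were not called. MCM10 rose by 0.19, and 4 of the 5 genes of CDC45 and GINS rose, all but GINS2. None of the polymerase α-primase subunits was called (POLA2 0.15 ± 0.062, adjusted p = 0.059), but POLA2 was called higher without a variance trend (adjusted p = 0.036), with only the 6 libraries compared (adjusted p = 0.045), with voom (adjusted p = 0.039) and without HSP90β-KO replicate 1 (0.19, adjusted p = 0.047). PRIM2 was called higher under 3 alternatives (adjusted p from 0.039 to 0.049) and when any 1 of 3 libraries was left out, most clearly without EV replicate 1 (0.19, adjusted p = 0.0049). POLD3, an accessory subunit of polymerase δ, fell (-0.17 ± 0.049, adjusted p = 0.0075) and POLD2 rose. PCNA (0.14 ± 0.032, adjusted p = 0.0013), RFC1 (0.17 ± 0.035, adjusted p = 0.00044) and RFC5 rose. No RPA subunit was called (RPA3 0.10 ± 0.048, adjusted p = 0.13), but RPA1 was with quantile normalization (0.091, adjusted p = 0.047), with only the 6 libraries compared (adjusted p = 0.046) and without EV replicate 3 (0.11, adjusted p = 0.049). FEN1, the flap endonuclease, rose (0.16 ± 0.036, adjusted p = 0.0011). In nucleotide supply RRM2 rose (0.17 ± 0.030, adjusted p = 4.4e-05), while TYMS (0.033 ± 0.040, adjusted p = 0.58) and TK1 (-0.0063 ± 0.044, adjusted p = 0.93) were not called. CHAF1B was at 0.075 ± 0.045, adjusted p = 0.21, and TIPIN, of the fork protection complex, rose (0.18 ± 0.059, adjusted p = 0.02). Of these calls 11 of 20 held under every alternative, ORC2, MCM3, GINS3, ORC3, CDC6, MCM10, PCNA, RFC1, FEN1 and RRM2 among them. The call of POLD3 was lost without HSP90β-KO replicate 3 (-0.14, adjusted p = 0.06). That of MCM4 was lost without EV replicate 1 or 3 or without any 1 HSP90β-KO library (adjusted p from 0.051 to 0.093), and that of TIPIN without EV replicate 2 or 3 or HSP90β-KO replicate 1 or 2 (adjusted p from 0.071 to 0.09). Of the GINS genes, GINS1 lost its call without EV replicate 2 or 3 or any 1 HSP90β-KO library (adjusted p from 0.053 to 0.11), and GINS4 without EV replicate 2 or 3 or HSP90β-KO replicate 1 or 2 (adjusted p from 0.082 to 0.16), which left CDC45 and GINS3. POLD2 lost its call without EV replicate 1 or HSP90β-KO replicate 2 or 3 (adjusted p from 0.068 to 0.11), and RFC5 without HSP90β-KO replicate 1 (adjusted p = 0.05). With median centring the calls of MCM4 (0.036), MCM7 (0.072), ORC6 (0.11), GINS1 (0.088), GINS4 (0.11), POLD2 (0.061), RFC5 (0.11) and TIPIN (0.14) were lost (adjusted p from 0.051 to 0.37). Without a variance trend 13 members were higher and 1 lower, and MCM4, MCM7, GINS4, POLD2, POLD3, RFC5 and TIPIN were not called (adjusted p from 0.055 to 0.13). ORC5 gained a call under several alternatives, with voom for example (0.13, adjusted p = 0.038).

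A direct comparison of the knockouts asked where they differed. Its fold changes do not use EV, but the EV libraries share in the estimate of the error. Higher in HSP90α-KO than in HSP90β-KO were 18 members and lower were 17, 35.3% and 33.3% of the members, where 30.1% of all genes tested were called higher and 29.8% lower. The median was 0.03 (all genes -0.008), and it was -0.015 with quantile normalization. None of the members passed the fold threshold, which 12.7% of all genes passed. The split moved with the scaling, to 13 higher and 19 lower with quantile normalization and 23 higher and 11 lower with median centring. All genes moved the same way, from 5128 higher and 5073 lower to 4749 and 5369, and to 5746 and 4432.

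ORC2 differed most, at 83.2, 84.1 and 83.9 CPM in HSP90α-KO against 50.6, 49.0 and 51.9 CPM in HSP90β-KO libraries (0.73 ± 0.042, adjusted p = 3.3e-14), and its 40 neighbours had a median of 0.76. POLA2 measured 15.5, 15.1 and 15.6 CPM in HSP90α-KO and 18.9, 20.2 and 20.6 CPM in HSP90β-KO libraries (-0.37 ± 0.062, adjusted p = 1.2e-05). MCM8 measured 22.3, 22.5 and 24.7 CPM in HSP90α-KO and 29.1, 28.9 and 27.6 CPM in HSP90β-KO libraries (-0.30 ± 0.055, adjusted p = 3.2e-05). GINS3 was higher in HSP90α-KO (0.30 ± 0.057, adjusted p = 6.1e-05). All 4 separated the 2 knockouts completely. Ribonucleotide reductase was also higher in HSP90α-KO (RRM2 0.26 ± 0.030, adjusted p = 2.3e-08; RRM1 0.25), as were CDT1 (0.26 ± 0.043, adjusted p = 7.9e-06), WDHD1 (0.27 ± 0.047, adjusted p = 1.4e-05), RFC3 (0.16 ± 0.046, adjusted p = 0.0039) and RPA1 (0.087 ± 0.035, adjusted p = 0.036). Higher in HSP90β-KO were MCM3 (-0.24 ± 0.026, adjusted p = 1.9e-08), MCM5 (-0.19 ± 0.037, adjusted p = 8.1e-05), MCM7 (-0.16 ± 0.028, adjusted p = 2.6e-05), LIG1 (-0.21 ± 0.046, adjusted p = 0.00032), POLD2 (-0.18 ± 0.035, adjusted p = 9e-05) and PCNA (-0.086 ± 0.032, adjusted p = 0.022). MCM2 was at 0.092 ± 0.036, adjusted p = 0.03.

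Several members gave no call between the knockouts. MCM4 was at 0.053 ± 0.027, adjusted p = 0.092, MCM6 at -0.0011 ± 0.030, adjusted p = 0.98, TYMS at 0.063 ± 0.040, adjusted p = 0.19, TK1 at 0.049 ± 0.044, adjusted p = 0.34 and CHAF1B at 0.076 ± 0.045, adjusted p = 0.15. With median centring MCM4 (0.097, adjusted p = 0.005), TYMS (0.11, adjusted p = 0.03) and CHAF1B (0.12, adjusted p = 0.029) were called higher in HSP90α-KO, and with quantile normalization MCM6 was called lower (-0.078, adjusted p = 0.015). Of the 35 calls, 21 held under every alternative. That of MCM2 was lost when any 1 of 4 libraries was left out (HSP90α-KO replicate 1 or 2, HSP90β-KO replicate 1 or 2, adjusted p from 0.059 to 0.13). That of PCNA was lost without HSP90α-KO replicate 1 or HSP90β-KO replicate 2 or 3 (adjusted p from 0.066 to 0.091), and that of RPA1 without HSP90α-KO replicate 2 or any 1 HSP90β-KO library (adjusted p from 0.06 to 0.17). Leaving out EV replicate 3 ended the calls of PRIM1 (adjusted p = 0.056) and RFC4 (adjusted p = 0.062). PRIM1 also lost its call without HSP90α-KO replicate 1 (-0.044, adjusted p = 0.4) or any 1 HSP90β-KO library (adjusted p from 0.051 to 0.14). RFC4 lost its call without HSP90α-KO replicate 2 or 3 or any 1 HSP90β-KO library (adjusted p from 0.074 to 0.21). Neither was called with the replicate block (adjusted p = 0.051 and 0.061). MCM2 (0.034, adjusted p = 0.42) and RPA1 (0.034, adjusted p = 0.42) were not called with quantile normalization, nor PCNA with median centring (-0.043, adjusted p = 0.28), and RPA1 was not called with the replicate block (adjusted p = 0.051).

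The last comparison asked whether cells resistant to PU-H71 differed from parental cells. In PUHr cells 10 members (19.6%) rose and 10 fell, where 25.6% of all 16503 genes tested were called higher and 25.8% lower, and 27.2% and 33.6% of the 8165 genes whose mean log2 CPM reached 4. The median was 0.007 (all genes 0.005) and turned to -0.04 with median centring, and values ranged from -0.33 to 0.29. No member passed the fold threshold, which 10.1% of all genes passed. The balance depended on the scaling. Quantile normalization gave 17 members higher and 6 lower, whereas median centring gave 7 higher and 14 lower. Of all genes 4221 were higher and 4259 lower as deposited, 4064 and 4289 with quantile normalization, and 3514 and 5203 with median centring, where their median was -0.04 as well.

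The 4 largest changes were in genes that mark and license origins. ORC1 measured 116, 120.2 and 116 CPM in parental and 95.4, 92.8 and 92.7 CPM in PUHr libraries (-0.33 ± 0.030, adjusted p = 3e-07). ORC2 measured 90.8, 89.2 and 92.3 CPM in parental and 79.4, 76.8 and 72.2 CPM in PUHr libraries (-0.25 ± 0.037, adjusted p = 4.4e-05), and here its 40 neighbours had a median of -0.01. CDC6 measured 124, 123 and 122 CPM in parental and 149, 152 and 149 CPM in PUHr libraries (0.29 ± 0.026, adjusted p = 3.4e-07). GMNN, the inhibitor of CDT1, measured 101, 95.4 and 98.1 CPM in parental and 119.7, 115 and 109 CPM in PUHr libraries (0.22 ± 0.037, adjusted p = 0.00014). The groups did not overlap for these 4 genes, with ORC1 and ORC2 lower and CDC6 and GMNN higher in PUHr. Of the 6 ORC subunits 4 fell and ORC6 rose, and all 3 licensing factors rose. These are 8 of the 20 members called. Among all genes tested 25.6% were called higher and 25.8% lower, and no test compared the roles. CDT1, at 106, 141 and 117 CPM in PUHr against 103, 109 and 103 CPM in parental libraries (0.20 ± 0.071, adjusted p = 0.029), overlapped between the groups, and its call was lost without parental replicate 1 or 3 (adjusted p = 0.098 and 0.1). That of ORC3 was lost without parental replicate 2 or 3 or PUHr replicate 3 (adjusted p from 0.081 to 0.18), without the filter (adjusted p = 0.28) and without a variance trend (adjusted p = 0.12). CDT1 was not called without the filter (adjusted p = 0.59), without a variance trend (adjusted p = 0.19) or with median centring (0.15, adjusted p = 0.053). Leaving out 1 library at a time gave CDT1 values from 0.087 to 0.29.

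In the helicase, MCM6 (-0.15 ± 0.024, adjusted p = 7.2e-05) and MCM3 (-0.07 ± 0.023, adjusted p = 0.021) fell, and MCM2 (-0.0025 ± 0.032, adjusted p = 0.96), MCM4 (0.053 ± 0.024, adjusted p = 0.077), MCM5 (-0.052 ± 0.026, adjusted p = 0.12) and MCM7 (-0.0073 ± 0.029, adjusted p = 0.86) were not called. With quantile normalization MCM4 (0.15, adjusted p = 2.6e-05) and MCM7 (0.092, adjusted p = 0.018) were called higher and MCM3 was not called (-0.005, adjusted p = 0.84), with median centring MCM5 was called lower (-0.099, adjusted p = 0.0094), and MCM4 was called higher without PUHr replicate 2 (0.067, adjusted p = 0.014). MCM8 was at 0.022 ± 0.043, adjusted p = 0.7. GINS2 fell (-0.10 ± 0.033, adjusted p = 0.025), PRIM1 rose (0.11 ± 0.037, adjusted p = 0.021), and POLD1, the catalytic subunit of polymerase δ, was at 0.10 ± 0.048, adjusted p = 0.083. POLD1 was called higher with the replicate block (adjusted p = 0.023), with quantile normalization (0.14, adjusted p = 0.027) and without PUHr replicate 1 (0.15, adjusted p = 0.016). POLE, the catalytic subunit of polymerase ε, fell by 0.083. RFC2 (0.19 ± 0.030, adjusted p = 9e-05) and PCNA (0.08 ± 0.025, adjusted p = 0.017) rose, and no RPA subunit was called (RPA3 -0.065 ± 0.049, adjusted p = 0.28). LIG1 (0.17 ± 0.029, adjusted p = 0.00018), TYMS (0.14 ± 0.037, adjusted p = 0.0046) and CLSPN, which carries the fork stall signal to CHEK1 (0.14 ± 0.031, adjusted p = 0.0018), rose. RRM2 (-0.08 ± 0.023, adjusted p = 0.01) and CHAF1A, the large subunit of chromatin assembly factor 1 (-0.13 ± 0.031, adjusted p = 0.0023), fell, and TK1 was at 0.03 ± 0.035, adjusted p = 0.5. Of the 20 calls, 10 held under every alternative, those of ORC1, ORC2, ORC5, ORC6, CDC6, GMNN, MCM6, RFC2, LIG1 and CLSPN. Leaving out single libraries ended the calls of MCM3 and GINS2 (parental replicate 1, and also parental replicate 2 for MCM3, parental replicate 3 for GINS2, and PUHr replicate 3 for both, adjusted p from 0.054 to 0.13). It also ended those of PRIM1 (parental replicate 1 or PUHr replicate 3, adjusted p = 0.079 and 0.068), PCNA (parental replicate 1 or 3, adjusted p = 0.066 and 0.076), POLE (parental replicate 1, adjusted p = 0.097) and RRM2 (parental replicate 3, adjusted p = 0.053). Without the filter MCM3, GINS2, PRIM1, POLE, PCNA, TYMS and CHAF1A were not called (adjusted p from 0.052 to 0.28). RRM2 (-0.037, adjusted p = 0.17), POLE (-0.0056, adjusted p = 0.85) and GINS2 (-0.071, adjusted p = 0.074) were not called with quantile normalization, nor PRIM1 (0.065, adjusted p = 0.18) and PCNA (0.033, adjusted p = 0.32) with median centring.

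**Figure D2:**
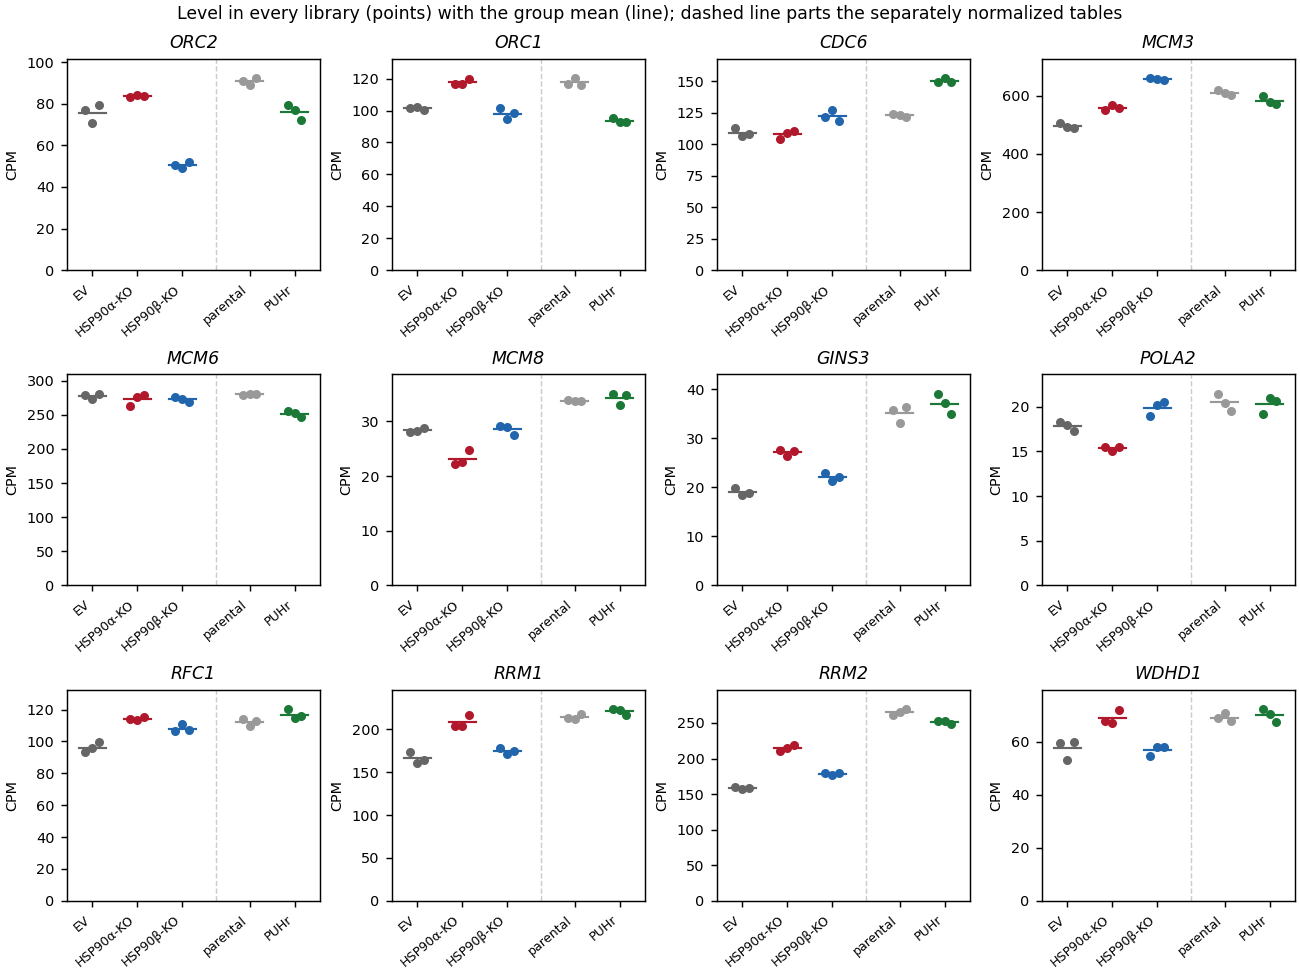
CPM (y axis, read counts scaled to library size, from 0) of 12 members in every library (points) of EV, HSP90α-KO, HSP90β-KO, parental and PUHr cells (x axis), with the group mean as a line; the dashed line parts the tables, which were normalized separately. ORC2 is near 50 CPM in all 3 HSP90β-KO libraries against 70.9 to 79.3 CPM in EV, and ORC1 is lower and CDC6 higher in PUHr than in parental cells.

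PRIM2, POLD1, POLE2 and TK1 had no call in the 3 comparisons with a control as first fitted. Of these, PRIM2 was called higher in HSP90α-KO without EV replicate 1 (0.17, adjusted p = 0.0085), TK1 was called higher there without EV replicate 2 (0.10, adjusted p = 0.04), and PRIM2 in HSP90β-KO and POLD1 in PUHr gained calls as given above. For TK1 the 95% intervals of the log2 fold change were -0.047 to 0.133 in HSP90α-KO, -0.096 to 0.083 in HSP90β-KO and -0.046 to 0.107 in PUHr. The standard errors of the members ran from 0.027 to 0.073 in the knockout table and from 0.023 to 0.071 in the other.

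Each member was set beside the genes around it on its chromosome. The median log2 fold change of the 20 nearest tested genes on each side, members left out (fewer near a chromosome end), lay between -0.28 and 0.39 over the 51 members in HSP90α-KO, between -0.56 and 0.09 in HSP90β-KO and between -0.33 and 0.21 in PUHr. Neighbourhoods whose median was beyond 0.25 in size were those of RRM1 (0.27), POLA1 (0.39) and GINS1 (-0.28) in HSP90α-KO, ORC2 (-0.56) and TYMS (-0.28) in HSP90β-KO, and RRM1 (-0.33) in PUHr. RRM1 (chr11:4094707-4138932) was thus near its neighbours in HSP90α-KO (0.33 against 0.27) and not in PUHr (0.045 against -0.33), and the interquartile range of those neighbours ran from -0.065 to 1.06 and from -1.92 to 0.17. GINS3 (0.01) and RRM2 (0.05) in HSP90α-KO, MCM3 in HSP90β-KO (0.03) and ORC1 (-0.04) and CDC6 (-0.01) in PUHr lay among neighbours with medians close to 0.

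**Figure D3:**
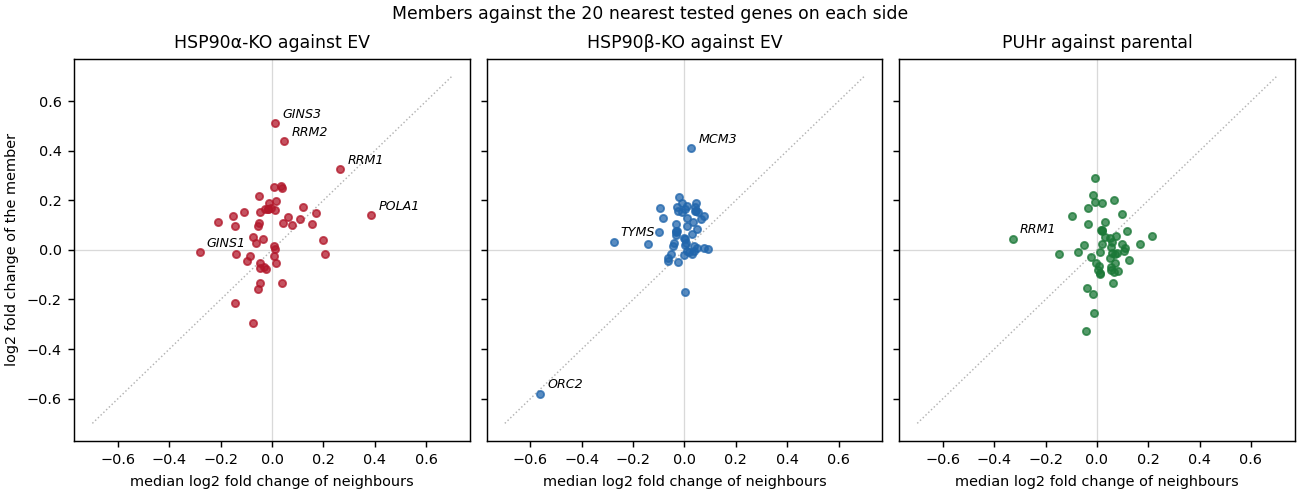
Log2 fold change of each of the 51 members (y axis) against the median log2 fold change of up to 20 nearest tested genes on each side (x axis) in 3 comparisons; points on the dotted line equal their neighbourhood. ORC2 in HSP90β-KO lies close to the line at -0.58 against -0.56, while GINS3, RRM2 and MCM3 stand above neighbourhoods near 0.

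Genes that work beside the members were counted from lists written by hand, and are read against all genes tested, of which 27.5% were called higher and 26.6% lower in HSP90α-KO, 17.2% each way in HSP90β-KO, and 25.6% and 25.8% in PUHr. Of 28 other replication genes, 11 rose and 6 fell in HSP90α-KO (median 0.004), 10 and 2 in HSP90β-KO (0.08) and 3 and 5 in PUHr (-0.02), which are 39.3% and 21.4%, 35.7% and 7.14%, and 10.7% and 17.9% of the list. MCMBP, which binds and unloads MCM complexes, rose in HSP90α-KO (0.97 ± 0.036, adjusted p = 5e-18), and CUL4B, a ubiquitin ligase scaffold, fell (-0.72 ± 0.032, adjusted p = 2.2e-16). In HSP90β-KO, POLD4, the small subunit of polymerase δ, rose (0.40 ± 0.098, adjusted p = 0.0024) and DTL, which targets CDT1 for degradation, fell (-0.35 ± 0.039, adjusted p = 5.7e-08). In PUHr the widest values were those of RNASEH2A (-0.31 ± 0.24, adjusted p = 0.31) and RNASEH2B (0.29 ± 0.053, adjusted p = 0.00034), subunits of RNase H2.

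Of 18 other genes of nucleotide supply, 7 rose and 2 fell in HSP90α-KO (median 0.07), 6 and 6 in HSP90β-KO (0.06) and 2 and 9 in PUHr (-0.09). The shares were 38.9% and 11.1%, 33.3% each way, and 11.1% and 50%. The salvage kinase DCK (0.35 ± 0.048, adjusted p = 6.2e-07) and SHMT1, of folate metabolism (0.24 ± 0.050, adjusted p = 0.00023), rose in HSP90α-KO. DTYMK, the thymidylate kinase (-0.65 ± 0.045, adjusted p = 6.9e-12), and ATIC, of purine synthesis (-0.50 ± 0.029, adjusted p = 2.3e-13), fell in HSP90β-KO. IMPDH2, of guanine nucleotide synthesis (-0.43 ± 0.027, adjusted p = 5.4e-09), and DCK (-0.33 ± 0.060, adjusted p = 0.00032) fell in PUHr. Of 11 other genes of chromatin assembly, 8 (72.7%, against 27.5% of all genes) rose and none fell in HSP90α-KO (median 0.17), led by UHRF1, which reads hemimethylated DNA (0.44 ± 0.050, adjusted p = 2.7e-08), and SSRP1, of the FACT complex (0.28 ± 0.028, adjusted p = 4.8e-09). In HSP90β-KO 1 rose (SUPT16H, 0.087 ± 0.030, adjusted p = 0.028) and 1 fell (NASP, -0.083 ± 0.026, adjusted p = 0.016). These are 9.09% each way, below the 17.2% of all genes. In PUHr 1 rose (UHRF1, 0.13 ± 0.045, adjusted p = 0.023) and 1 fell (ASF1A, -0.31 ± 0.042, adjusted p = 2.5e-05).

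Of 10 genes of the replication checkpoint, 4 (40%, against 27.5% of all genes) rose and none fell in HSP90α-KO (median 0.12), with RAD17 at 0.25 ± 0.059, adjusted p = 0.00066 and CHEK1 at 0.16 ± 0.041, adjusted p = 0.0022. In HSP90β-KO 4 (40%) rose and 1 (10%) fell (0.03), against 17.2% each way, with WEE1, the kinase that holds back mitosis, at -0.26 ± 0.040, adjusted p = 1.2e-05 and RAD9A at 0.23 ± 0.070, adjusted p = 0.012. In PUHr 1 rose and 1 fell (-0.07), 10% each way against 25.6% and 25.8%, with RAD17 at -0.12 ± 0.045, adjusted p = 0.034 and RAD9A at -0.10 ± 0.049, adjusted p = 0.11. Of 19 E2F and pocket protein genes, 6 rose and 3 fell in HSP90α-KO (0.03), 4 and 5 in HSP90β-KO (0.05) and 5 and 3 in PUHr (0.04). The shares higher, 31.6%, 21.1% and 26.3%, were near those of all genes (27.5%, 17.2% and 25.6%), and the shares lower were 15.8%, 26.3% and 15.8%. RB1, the retinoblastoma protein that holds E2F back (0.59 ± 0.049, adjusted p = 9.2e-11), and LIN9, of the MuvB complex (0.37 ± 0.042, adjusted p = 3.5e-08), rose in HSP90α-KO, and LIN9 fell in HSP90β-KO (-0.44 ± 0.042, adjusted p = 3.3e-09). LIN37, at 0.32 ± 0.16, adjusted p = 0.13, was not called there. In PUHr E2F5 rose (0.59 ± 0.061, adjusted p = 1.2e-06) and E2F2 fell (-0.52 ± 0.052, adjusted p = 9.4e-07).

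The 20 genes of G2 and M phase had larger fold changes than the replication genes in HSP90α-KO. There 17 (85%, against 27.5% of all genes) rose and none fell, with a median of 0.31 against 0.10 for the 51 members, and MKI67, a proliferation marker of the chromosome surface, was the only gene of the list past the fold threshold (1.09 ± 0.029, adjusted p = 2.9e-21). UBE2C, at -0.65 ± 0.28, adjusted p = 0.051, was below 1 CPM in both groups. In HSP90β-KO none rose and 8 (40%, against 17.2%) fell (median -0.07), with CENPF, a kinetochore protein, at -0.61 ± 0.030, adjusted p = 5.5e-15, and NUSAP1 at 0.32 ± 0.29, adjusted p = 0.43 from under 1 CPM. Between the knockouts 18 (90%, against 30.1%) were higher in HSP90α-KO and none lower (median 0.42, members 0.03), led by MKI67 (1.22 ± 0.029, adjusted p = 1.2e-22) and CENPF (0.99 ± 0.030, adjusted p = 2.1e-20). In PUHr 5 rose and 5 fell (median -0.02), 25% each way and near the 25.6% and 25.8% of all genes, with KIF11, a spindle motor, at 0.24 ± 0.037, adjusted p = 7e-05 and NUSAP1 at 0.28 ± 0.27, adjusted p = 0.41. These counts describe the lists, and no test compared one list with another. Members and lists were chosen with earlier results of these data known, so the contrast between them is a description only. The widest values of the other lists between the knockouts were those of MCMBP (0.84), CUL4B (-0.68), DTYMK (0.61), ATIC (0.53), UHRF1 (0.40), SSRP1 (0.27), WEE1 (0.40), ATR (-0.23), LIN9 (0.80) and E2F5 (-0.61), all called.

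**Figure D4:**
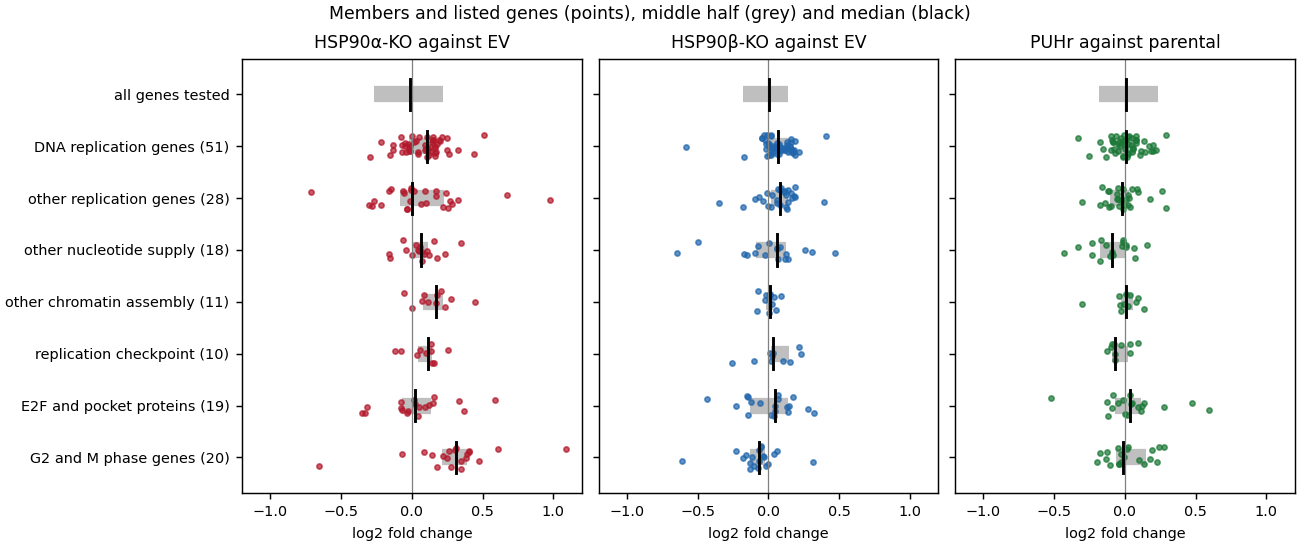
Log2 fold change (x axis) of the 51 DNA replication genes and of 6 lists of related genes (y axis, number of genes in brackets; points are genes) in 3 comparisons, with the interquartile range in grey and the median in black and only these drawn for all genes tested. The G2 and M phase genes have a median of 0.31 in HSP90α-KO, to the right of the 0.10 of the replication genes, and of -0.07 in HSP90β-KO. Members and lists were chosen with earlier results of these data known.

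Several members share exon sequence with another gene. TYMS overlaps ENOSF1 on the opposite strand by 967 bases, GINS1 overlaps NINL by 259, RFC5 overlaps WSB2 by 186 and ORC4 overlaps MBD5 by 157, while PRIM1 shares 139 bases with NACA and CHAF1B 89 with MORC3 on the same strand. The library kit keeps strand, but the sources used here do not give the strand setting of the counting, so the values of these members are less certain. PRIM2, PCNA and RRM2 have pseudogene copies, and how reads that fit several places were counted is not given in the sources used here either.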

How the data were processed

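The authors captured mRNA from K562 cells, made stranded libraries (VAHTs) and sequenced them in single reads on a NextSeq550. Per the labels and the study's methods, reads were aligned to GRCh38/hg38 with RNA STAR, counted with featureCounts and normalized with edgeR on Galaxy. Versions, and the strand setting of the counting, are not given in the sources used here. The deposited values are log2 CPM per gene, 1 table for the knockouts and 1 for the resistant cells, normalized by the authors separately with a prior count, which lifts the lowest values. Whole reads were recovered from the steps of the values and used for depth and for 1 alternative. Comparisons were made within a table. Columns were matched to samples by name, and DMSO is spelled DSMO in 3 of them. The tables hold 30 and 114 entries without an identifier, which were left out.

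Genes that reached a log2 CPM of -1 in 3 or more libraries were fitted with limma 3.58.1 (R 4.3.3) on the deposited log2 values, 1 fit per table with a variance trend. Calls are an adjusted p under 0.05 (Benjamini-Hochberg over all genes tested), and the study's fold threshold of 1 was counted beside. Fold changes are on the scale of the deposited log2 CPM, and those of genes near 0 reads are understated. Script checks were run on simulated data. The alternatives were no filter, a filter on the mean (1), pseudocounts of 1 and 5, voom weights on the recovered reads, no variance trend, quantile normalization, median centring, a replicate block, only the 6 libraries compared, and leaving out each library. The replicates' counts differed by more than sampling noise (chi-square over its degrees of freedom 1.15 to 4.23), so each counts as 1 sample. The lowest count of a member was 291 reads, and the errors given come from the spread between libraries.

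The members and the lists were chosen with earlier results of these data known. Named are, per comparison, the member of each role with the largest change, the 4 largest changes with every library, the MCM2-7 genes, PCNA, RRM2, TYMS and TK1, and the 2 genes of each list with the largest change. Other members named beside a role were added after their values were seen. Positions and exon lengths are from GENCODE v44 on GRCh38, and promoters from RefSeq on GRCh38.p14.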

Additional observations from a re-analysis of the deposited data

Results flagged for a closer look

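ORC2 was the only member called in opposite directions in the knockouts, higher in HSP90α-KO (log2 fold change 0.15) and lower in HSP90β-KO (-0.58), and the direct comparison of the knockouts gave 0.73 (limma, adjusted p = 3.3e-14, n = 3 libraries a group, higher in all 3). Its 40 nearest tested neighbours on chromosome 2 had medians of 0.17, -0.56 and 0.76 in the same comparisons, and 36 of the 40 were called higher in HSP90α-KO than in HSP90β-KO. The part of these neighbours in the value of ORC2 was not tested.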

How the results depend on the processing

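No member passed the fold threshold under any alternative, and the numbers of members called moved with the scaling and the variance model. In HSP90α-KO against EV, 9 members were lower with quantile normalization and 2 without a variance trend, against 5. In HSP90β-KO against EV, 10 were higher with median centring, against 18, and 1 was lower without a variance trend, against 2. Between the knockouts 11 were lower with median centring, against 17. In PUHr against parental, 6 were higher and 5 lower without a filter, 17 higher and 6 lower with quantile normalization, and 5 lower without a variance trend, against 10 and 10. The value of MCM7 in PUHr turned from -0.007 to 0.092 with quantile normalization, and the median of the members between the knockouts from 0.03 to -0.015. The cause of these shifts was not tested. Leaving out each library in turn gave 23 to 26 higher and 4 to 5 lower in HSP90α-KO, 13 to 20 and 1 to 2 in HSP90β-KO, 12 to 18 and 14 to 17 between the knockouts, and 7 to 11 and 7 to 11 in PUHr. The labels do not say whether same-numbered libraries are paired. Correlations of their deviations from group means ran from -0.184 to 0.066 over 9 pairs and from -0.024 to 0.099 over 3 pairs. For differently numbered libraries they ran from -0.252 to 0.215 over 18 pairs and from -0.079 to 0.064 over 6 pairs. With so few libraries these values cannot show whether a pairing exists. With the replicate block the counts were 25 and 5, 18 and 2, 15 and 16, and 11 and 10. With only the 6 libraries compared, they were 25 and 5, 22 and 2, and 18 and 16 in the knockout table. Over all alternatives, calls of single members were lost 48 times and gained 7 times in HSP90α-KO, 39 and 21 times in HSP90β-KO, 63 and 14 times between the knockouts, and 40 and 14 times in PUHr. The 14 in PUHr leave out MCM7, which also gained a call, with its sign turned, under quantile normalization. With 3 libraries a group, changes near 0.1 on the log2 scale were at the edge of the test.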

Other observations

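The members with and without an E2F match in the promoter had close medians in every comparison with a control. In HSP90β-KO 10 of the 24 with a match rose and none fell, with a median log2 fold change of 0.07, and of the 21 without a match 6 rose and 1 fell, also with a median of 0.07. In PUHr 6 rose and 6 fell of those with a match, with a median of -0.005, and 4 rose and 4 fell of those without, with a median of 0.03. Of all genes tested, 17.2% were called in each direction in HSP90β-KO, and 25.6% higher and 25.8% lower in PUHr. Between the knockouts the medians were 0.005 with a match and 0.08 without. The search covered only the listed letters, so members without a match were not shown to lack control by E2F. No test was run on these groups.

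Subunits that work in 1 complex differed among themselves by more than the members' standard errors. Within the MCM2-7 helicase, values ran from -0.13 (MCM5) to 0.17 (MCM3) in HSP90α-KO, from -0.02 (MCM6) to 0.41 (MCM3) in HSP90β-KO, and from -0.15 (MCM6) to 0.05 (MCM4) in PUHr. Within the origin recognition complex they ran from -0.08 (ORC5) to 0.22 (ORC1), from -0.58 (ORC2) to 0.19 (ORC3), and from -0.33 (ORC1) to 0.19 (ORC6). In HSP90β-KO the 40 neighbours of ORC2 had a median of -0.56, and their part in its value was not tested.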
